A study of Mus musculus with 12 samples.

Results

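The genes described are 117 members of the solute carrier superfamily measured in immune cells of mouse epidermis. Members are the symbols that begin with Slc and a digit and that had a value above 0 in at least 6 of the 12 libraries. Of the 23420 symbols in the table, 369 begin that way, of which 153 were at 0 in every library and 99 were above 0 in 1 to 5 libraries. The members were thus selected on the measured values, which fixes that these genes were detectable. As each group has 3 libraries, the rule also leaves out any gene confined to 1 group. Detection in deeper libraries counts toward it, so the rule is not independent of the groups. The 20 members above 0 in exactly 6 libraries had means over the 12 libraries of 0.377 to 1.16, and the 13 symbols above 0 in exactly 5 had means of 0.289 to 0.95.

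Cells were sorted by surface phenotype as CD45+ and CD3-, and as CD11b+ and MHCII+. The 4 groups were 1.5-month-old (1.5M) Cbfβ2 knockout (KO) mice, 1.5M wild-type (wt) mice, KO mice at day 5 after birth (P5) and P5 wt mice, with 3 libraries each of 100 cells per tube. The labels name no other allele, strain or agent, and they do not give the cells in which Cbfβ2 was removed. The libraries of a group are separate preparations, and whether they came from separate animals is not given, so the p-values measure only the spread between preparations, which may be technical.

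Solute carriers are membrane proteins that move amino acids, sugars, nucleotides, metals, ions and metabolites across the plasma membrane and the membranes of mitochondria, lysosomes and the secretory pathway. Some exchange one solute for another, and others couple movement to a gradient of sodium or protons. In macrophages and dendritic cells, carriers of the lysosome export what is released from engulfed material, and some carry metals or bacterial fragments out of that compartment. A few symbols belong to proteins named after a carrier they bind, such as the scaffold Slc9a3r1.

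Values are molecules tagged near the 3' end and scaled to the same total of 37092 in every library, called scaled molecules below. They are not divided by gene length, so they are compared between libraries and not between genes. The 1.5M KO libraries held 74620 to 77419 molecules each and the 1.5M wt libraries 40254 to 51848. The P5 KO libraries held 30913 to 51001 and the P5 wt libraries 34192 to 52208. Where a group held no molecule of a gene, a count of 0 allows up to 3 molecules over its libraries, or a mean of 0.485 scaled molecules for 1.5M KO cells, 0.831 for 1.5M wt cells, 0.907 for P5 KO cells and 0.895 for P5 wt cells. A mean set against such a limit is taken as exact, so the comparison covers the counting error of the empty group only. The intervals given below cover counting error only. Cbfb had 0.994 to 2.40 scaled molecules in 1.5M KO and 7.15 to 13.8 in 1.5M wt, with with 1.45 to 3.63 in P5 KO and 3.91 to 4.97 in P5 wt. Cd3e and Cd3g were at 0 in all 12 libraries, and Cd74, of the MHC class II pathway, averaged 1049 in 1.5M KO, 1614 in 1.5M wt, with 533 in P5 KO and 753 in P5 wt. Summed Langerhans cell markers were 1322 to 1586 in 1.5M KO and 2577 to 2812 in 1.5M wt, and 608 to 785 in P5 KO and 982 to 1129 in P5 wt. That list includes Cd74, H2-Ab1 and Csf1r, and Csf1r is also in the macrophage list used below. Cd74 made up most of the sum, at 935 to 1214 in 1.5M KO and 1510 to 1697 in 1.5M wt. At P5 it held 474 to 592 in KO and 692 to 856 in wt. Cd207, which defines mature Langerhans cells, averaged 21.0 in 1.5M KO and 214 in 1.5M wt (limma log2 fold change -3.29, adjusted p = 1.75e-07), and it was at 0 in all P5 KO libraries and averaged 1.58 in P5 wt.

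The members took a similar part of each library. They held 0.645% to 0.752% of the scaled total in 1.5M KO, 0.668% to 0.727% in 1.5M wt, with 0.650% to 0.759% in P5 KO and 0.675% to 0.785% in P5 wt. The number of members above 0 was 103 to 107 per library in 1.5M KO, 76 to 85 in 1.5M wt, with 71 to 91 in P5 KO and 85 to 97 in P5 wt. After every library was thinned to 30797 molecules it was 69 to 74, 65 to 66, 71 to 85 and 82 to 87 in the same order of groups. The 1.5M KO libraries thus held the most members as deposited and not at equal depth, where the P5 wt range began above those of both 1.5M groups. Over all libraries a member had 6 to 459 molecules with a median of 20, and 62 of the 117 had under 20. Values of 1 to 3 scaled molecules therefore rest on few molecules, and 23 members had no molecule in at least 1 group.

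**Figure D1:**
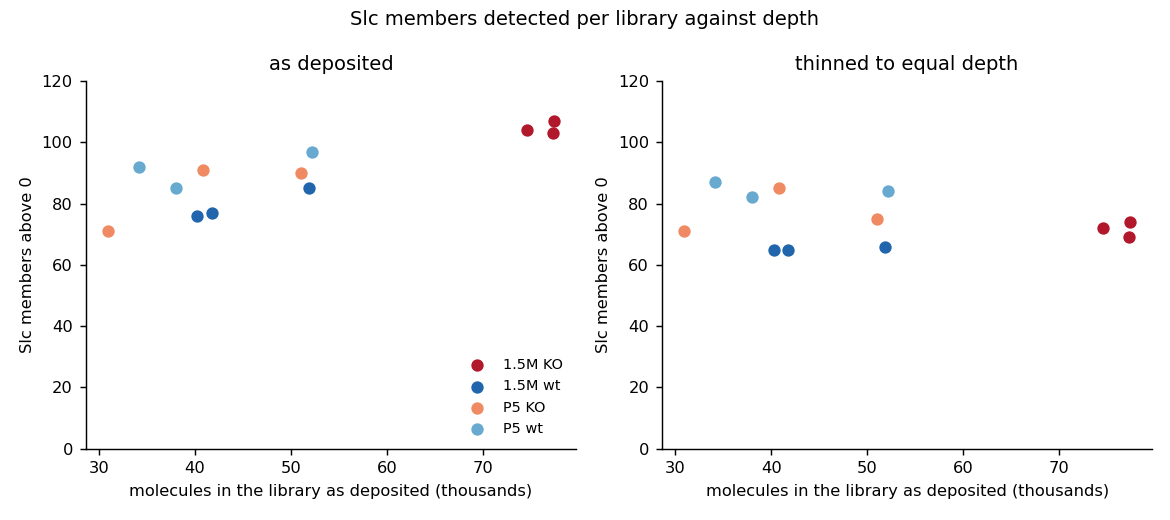
Number of solute carrier members above 0 in each library (y axis, genes) against the molecules in that library as deposited (x axis). Members are counted as deposited on the left and after thinning to equal depth on the right. Each point is a library, coloured by group. The 1.5M KO libraries stand at 103 to 107 members as deposited and at 69 to 74 once thinned.

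Upstream sequences of 5 members called in a test below are shown because a knockout of a Runx partner raises the question of which motifs lie before their starts. They come from the RefSeq promoter table (build GRCm38.p6), which has an entry for 6 of the 9 called members. Each is written 5′ to 3′ along the gene and ends before the first annotated transcript start that falls in its window, or at the end of a motif that crosses that start. Slc38a2 is chr15:96699731-96699978 on the minus strand, Slc29a3 is chr10:60752850-60753032 on the minus strand, Slc11a1 is chr1:74374953-74375013 on the plus strand and Slc12a7 is chr13:73763447-73763664 on the plus strand. Slc31a2 is chr4:62286179-62286428 on the plus strand. The Slc12a7 and Slc31a2 stretches lie before starts inside those genes, not at their outermost starts. Capitals mark the Runx core in Slc31a2, which reads ACCACA on this strand, and the E-box CACGTG in Slc12a7.
Slc38a2: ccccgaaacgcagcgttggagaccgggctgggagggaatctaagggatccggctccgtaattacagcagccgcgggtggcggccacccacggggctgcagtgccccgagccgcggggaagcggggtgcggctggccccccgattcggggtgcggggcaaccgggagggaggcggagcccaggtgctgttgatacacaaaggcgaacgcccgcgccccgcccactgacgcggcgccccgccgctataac
Slc29a3: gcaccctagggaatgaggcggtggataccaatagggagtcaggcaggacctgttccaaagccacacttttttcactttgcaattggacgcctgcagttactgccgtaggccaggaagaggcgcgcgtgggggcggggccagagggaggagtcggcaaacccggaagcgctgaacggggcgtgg
Slc11a1: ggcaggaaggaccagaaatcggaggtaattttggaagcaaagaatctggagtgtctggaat
Slc12a7: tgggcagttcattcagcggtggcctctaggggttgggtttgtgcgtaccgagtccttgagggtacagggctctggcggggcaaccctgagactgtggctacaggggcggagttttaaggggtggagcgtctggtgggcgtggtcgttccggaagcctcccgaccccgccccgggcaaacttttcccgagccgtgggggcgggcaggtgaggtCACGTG
Slc31a2: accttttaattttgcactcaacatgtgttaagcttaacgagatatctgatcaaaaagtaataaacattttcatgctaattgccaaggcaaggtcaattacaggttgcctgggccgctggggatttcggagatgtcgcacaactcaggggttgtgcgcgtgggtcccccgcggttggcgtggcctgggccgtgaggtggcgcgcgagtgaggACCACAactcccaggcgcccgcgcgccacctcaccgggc
The 250 bases before each start were searched on both strands for the Runx core TGTGGT, the E-box CACGTG and the PU.1 core GAGGAAGT, and no bases of different motifs overlapped. Of 90 members with an entry, 15.6% held the Runx core, against 12.7% of 5790 entries of genes above 0 in at least 6 libraries. The E-box was in 18.9% of these members and in 10.8% of those genes, and the PU.1 core in 4.44% and 3.47%. Over windows, 11.5% of 122 member windows held the Runx core, against 14.0% of all 32851 windows. The E-box was in 13.9% and 6.02% of these windows, and the PU.1 core in 3.28% and 2.44%. A match in these letters is a description of the sequence and not a site. Of the 6 called members with an entry, 2 held the Runx core, Slc31a2 and Slc3a2, and the Slc3a2 window is not printed. For both, the bases just after the start were not found in an annotated transcript of the gene, so these starts are uncertain. Slc6a6, Slc36a2 and Slc15a3 are named without a sequence.

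The amino acid carriers at the plasma membrane, a class of 19 members, had the most calls, and its members moved in both directions. In 1.5M KO against 1.5M wt 1 was called higher and 1 lower, against 3.64% and 2.03% of genes above 0 in at least 6 libraries. In 1.5M wt against P5 wt 1 was called higher, against 2.46%. Slc6a6, the taurine transporter (chr6:91684048-91759063), had 25.4, 31.3 and 28.7 scaled molecules in the 1.5M KO libraries, 5.53, 10.02 and 7.11 in 1.5M wt, 23.6, 13.8 and 22.8 in P5 KO and 9.24, 5.42 and 13.7 in P5 wt. Every 1.5M KO library was above every 1.5M wt library, and every P5 KO library was above every P5 wt library, though by a small margin at P5. At 1.5M the log2 fold change was 1.81 (SE 0.31, limma adjusted p = 0.000481), and at P5 it was 1.06 with a limma adjusted p of 0.0962, which did not pass. A call is an adjusted p under 0.05 over all 10023 genes tested, and fold changes are on the log2(value + 1) scale, which understates changes of low genes.

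Slc38a2 carries small neutral amino acids with sodium and is known to be induced when amino acids are scarce. Its values were 4.32, 5.96 and 4.79 scaled molecules in 1.5M KO, 12.9, 10.7 and 14.2 in 1.5M wt, 5.45, 2.91 and 4.80 in P5 KO and 9.24, 5.42 and 7.81 in P5 wt. The 1.5M KO libraries lay below all 1.5M wt libraries, with a log2 fold change of -1.18 (SE 0.32, limma adjusted p = 0.033). The call was lost when any one of the 6 libraries of the comparison was left out, with adjusted p between 0.0531 and 0.131. The P5 groups overlapped by a single pair of values.

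Slc3a2 encodes the heavy chain (CD98) that carries several amino acid exchangers to the cell surface. It had 15.5, 14.9 and 15.8 scaled molecules in 1.5M KO, 32.3, 36.5 and 24.0 in 1.5M wt, 7.27, 2.91 and 15.6 in P5 KO and 9.95, 9.76 and 8.01 in P5 wt. The 1.5M wt libraries stood above those of every other group, and 1.5M KO against 1.5M wt had a log2 fold change of -0.94 that did not pass (limma adjusted p = 0.17). Against P5 wt the log2 fold change in 1.5M wt was 1.62 (SE 0.36, limma adjusted p = 0.00757), and without the second 1.5M wt library the adjusted p was 0.0537. Light chains that pair with it were sparse, did not all move the same way and are outside the rule for named genes. Slc7a5 averaged 0.479 ± 0.479 in 1.5M KO, 2.20 ± 3.08 in 1.5M wt, with 0.788 ± 0.735 in P5 KO and 1.97 ± 1.27 in P5 wt (SD, n = 3 each). Slc7a7 averaged 1.45 in 1.5M KO and 0 in 1.5M wt, and Slc7a6 averaged 0.982 and 0. For Slc7a6 and Slc7a7, every 1.5M KO library was above every 1.5M wt library. No comparison of Slc7a5, Slc7a6 or Slc7a7 passed the test.

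The class of proton-coupled, lysosomal and vesicular carriers had 2 called members of 9, in different comparisons. Slc15a3 was called higher in 1.5M wt against P5 wt, against 2.46% of genes above 0 in at least 6 libraries. Slc36a2 was called lower in P5 KO against P5 wt, against 0.707%. Slc15a3, a lysosomal proton-coupled carrier of histidine and small peptides, known for passing bacterial wall fragments to the cytosol, had 9.11, 6.46 and 6.71 scaled molecules in 1.5M KO, 8.29, 12.2 and 13.3 in 1.5M wt, 9.99, 6.55 and 4.80 in P5 KO and 4.97, 0 and 0.977 in P5 wt. The 1.5M wt libraries were above all P5 wt libraries, with a log2 fold change of 2.40 (SE 0.47, limma adjusted p = 0.00242). It was 3.10 without the first P5 wt library and 1.81 without the second, and the call was lost with the 6 libraries of the comparison alone (adjusted p = 0.159). In P5 KO against P5 wt the groups overlapped by a single value, and the log2 fold change of 1.78 had a limma adjusted p of 0.0523. The last 500 bases of Slc15a3 lie over Tmem132a on the other strand, whose highest value was 1.78.

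Slc36a2, a proton-coupled carrier of glycine, proline and alanine, was the member with the largest fall at P5. It had 1.92, 1.99 and 1.44 scaled molecules in 1.5M KO, 4.61, 2.15 and 3.998 in 1.5M wt, 0, 0 and 0 in P5 KO and 4.14, 9.04 and 4.40 in P5 wt. P5 KO had no molecule and P5 wt had 18.7, and the P5 wt mean was 6.46 times the limit for P5 KO (limma log2 fold change -2.71, SE 0.43, adjusted p = 0.00122). The 1.5M KO libraries were also below all 1.5M wt libraries, a difference that did not pass the test. Fractional molecules, as arise where a tag matches several genes, occurred in 4 of its 9 libraries above 0.

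Slc11a1, a carrier that pumps iron and manganese out of phagosomes, was high in KO cells at both ages. It had 7.67, 4.97 and 7.43 scaled molecules in 1.5M KO, 0, 0.715 and 0 in 1.5M wt, 2.72, 3.64 and 6.0 in P5 KO and 0, 0 and 0 in P5 wt. At each age every KO library was above every wt library. P5 KO held 13 molecules and P5 wt none, and the P5 KO mean was 4.61 times the limit for P5 wt (limma log2 fold change 2.31, SE 0.45, adjusted p = 0.00842). At 1.5M, KO held 41.5 molecules and wt 1, a ratio of 24.2 with a 95% exact counting interval of 4.06 to 968 (limma log2 fold change 2.66, SE 0.45, adjusted p = 0.000408). Beside the P5 value, summed neutrophil markers were 42.9 to 228 in P5 KO and 0 to 3.91 in P5 wt. Both tested genes of that list were called higher in P5 KO, against 1.15% of all genes tested. Mpo and Elane were at 0 in every library, and the part of these markers in the result was not tested. At 1.5M the same markers were at 0 in all 6 libraries. Summed macrophage and monocyte markers were 419 to 468 in 1.5M KO and 61.5 to 81.7 in 1.5M wt, and 122 to 181 in P5 KO and 131 to 157 in P5 wt, and C1qa averaged 113 in 1.5M KO and 5.40 in 1.5M wt. Of 7 such genes tested, 4 were called higher in 1.5M KO, against 3.24% of all genes tested, and 2 in P5 KO, against 1.15%. None was called lower in KO at either age. Mertk was at 0 in every library, and the part of these markers in the result was not tested. As these are bulk samples, fewer cells of a type and less RNA per cell cannot be told apart.

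Nucleoside carriage was represented by Slc29a3, an equilibrative nucleoside transporter of the lysosome and mitochondria (chr10:60712072-60752849). It had 5.28, 6.96 and 5.75 scaled molecules in 1.5M KO, 0, 2.86 and 0.888 in 1.5M wt, 3.63, 5.09 and 6.0 in P5 KO and 5.68, 7.59 and 6.84 in P5 wt. The 1.5M wt libraries were the low ones, below all libraries of the other groups. The log2 fold change was 1.84 in 1.5M KO against 1.5M wt (SE 0.42, limma adjusted p = 0.00852) and -1.98 in 1.5M wt against P5 wt (SE 0.42, limma adjusted p = 0.00564). Both comparisons use the same 1.5M wt libraries. The first call had an adjusted p of 0.0631 without the second 1.5M KO library and 0.0646 without the first 1.5M wt library. Both calls were lost after thinning to equal depth (0.079 and 0.104) and with the libraries of each comparison alone (0.122 and 0.138).

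Copper and chloride carriage each had 1 called member, both sparse. Slc31a2 was called lower in 1.5M wt against P5 wt, against 3.36% of genes above 0 in at least 6 libraries. Slc12a7 was called above 0 for the difference of the knockout effects, against 1.56%. Slc31a2, a low-affinity copper transporter of endosomes and lysosomes, had 0.959, 0.497 and 0.479 scaled molecules in 1.5M KO, 0, 0 and 0 in 1.5M wt, 0.908, 2.91 and 0 in P5 KO and 1.42, 3.25 and 2.93 in P5 wt. It was lower in 1.5M wt than in P5 wt (limma log2 fold change -1.78, SE 0.51, adjusted p = 0.0434), from 0 and 8 molecules. The P5 wt mean was 3.05 times the limit for 1.5M wt. The call was lost when any one 1.5M wt library was left out (adjusted p 0.107 to 0.109), without P5 wt library 2 or 3 (0.114 and 0.103) and without any one 1.5M KO library (0.0608 to 0.0678). It was also lost with pseudocounts of 0.1 and 10 (0.0514 and 0.0653), with no filter (0.0582) and after thinning (0.129). Median-of-ratios scaling (0.0586) and quantile normalization (0.0614) ended it too, and in all it was lost in 15 of 22 alternatives.

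Slc12a7, a potassium and chloride cotransporter, had 1.92, 1.49 and 1.92 scaled molecules in 1.5M KO, 0, 0 and 0 in 1.5M wt, 0, 1.45 and 0 in P5 KO and 2.13, 1.08 and 2.93 in P5 wt. KO was the higher group at 1.5M and the lower group at P5 in the fitted means, and the P5 groups overlapped. The knockout effect at 1.5M minus that at P5 was 2.60 on the log2 scale (SE 0.68, limma adjusted p = 0.0499). Neither effect passed alone, and the adjusted p of the difference was 0.079 to 0.121 without each of the 10 libraries whose removal ended the call. In all, the 4 groups held 11, 0, 2 and 7 molecules in the order of the values above.

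**Figure D2:**
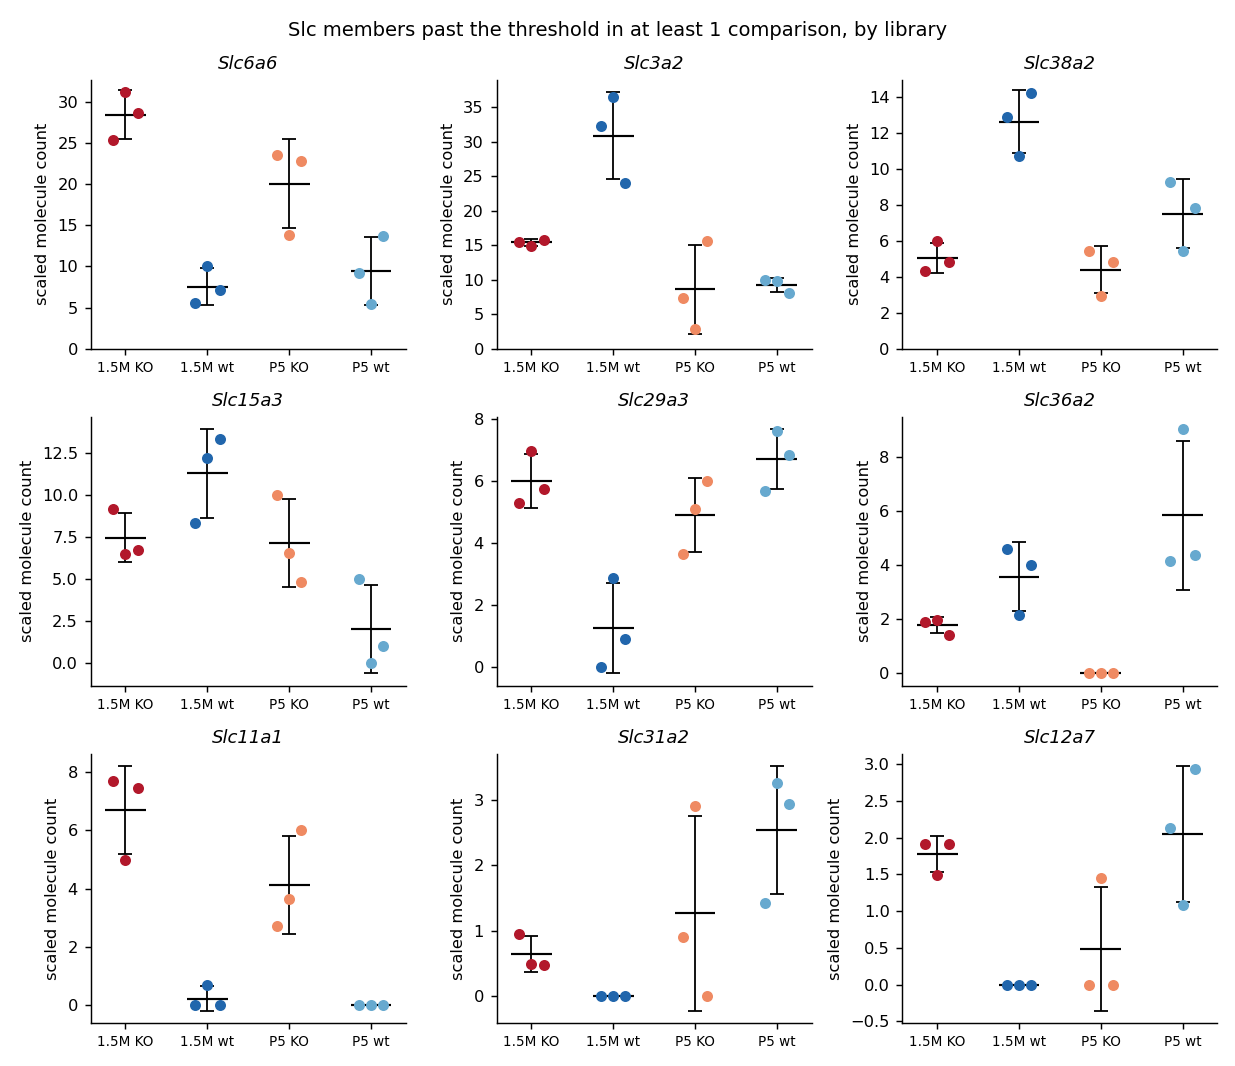
Scaled molecules (y axis) of the 9 members called in at least 1 comparison, by group (x axis: 1.5M KO, 1.5M wt, P5 KO, P5 wt); points are libraries, wide lines are group means and bars are 1 SD (n = 3). Slc11a1 is at or near 0 in every wt library, and Slc29a3 is lowest in 1.5M wt.

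The share of members called equalled that of genes above 0 in at least 6 libraries in P5 KO against P5 wt and was lower in the other 4 comparisons, with no test of that difference. In P5 KO against P5 wt, 2 of 117 members were called, 1 higher (Slc11a1) and 1 lower (Slc36a2), which is 1.71%, against 1.71% of the 7641 genes above 0 in at least 6 libraries (1.01% higher and 0.707% lower). In 1.5M KO against 1.5M wt, 3 members were called higher and 1 lower, or 3.42%, against 5.67% of those genes (3.64% higher and 2.03% lower). In 1.5M wt against P5 wt, 2 were called higher and 2 lower, or 3.42%, against 5.82% (2.46% higher and 3.36% lower). In 1.5M KO against P5 KO no member was called by limma, against 3.09% of those genes (1.87% higher and 1.22% lower). Slc36a2 had the smallest limma adjusted p there, 0.0664. An unadjusted p under 0.05 was found for 12 of 117 members and for 1426 of the 10023 genes tested. In the same comparison voom called 6 members, and its share over all genes is not given here. For the difference of the knockout effects 1 member was called, or 0.855%, against 2.2% (1.56% above 0 and 0.641% below 0). In all, 9 members were called in at least 1 comparison and 108 in none.

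Medians over the members were close to those over all genes above 0 in at least 6 libraries. The median log2 fold change was -0.18 for the members and -0.04 for those genes in P5 KO against P5 wt, and 0.12 and 0.11 in 1.5M KO against 1.5M wt. It was -0.25 and -0.25 in 1.5M wt against P5 wt, and 0.07 and -0.06 in 1.5M KO against P5 KO. In 1.5M KO against 1.5M wt, 19 members had groups that did not overlap with KO higher and 8 with KO lower, 16.2% and 6.84%, against 16.1% and 8.44% of those genes. At P5 the counts were 8 and 9, 6.84% and 7.69%, against 7.0% and 7.36%. In 1.5M wt against P5 wt, 10 members did not overlap with 1.5M wt higher and 16 with it lower, 8.55% and 13.7%, against 6.98% and 16.5%. In 1.5M KO against P5 KO the counts were 14 and 10, 12% and 8.55%, against 9.02% and 11.4%.

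**Figure D3:**
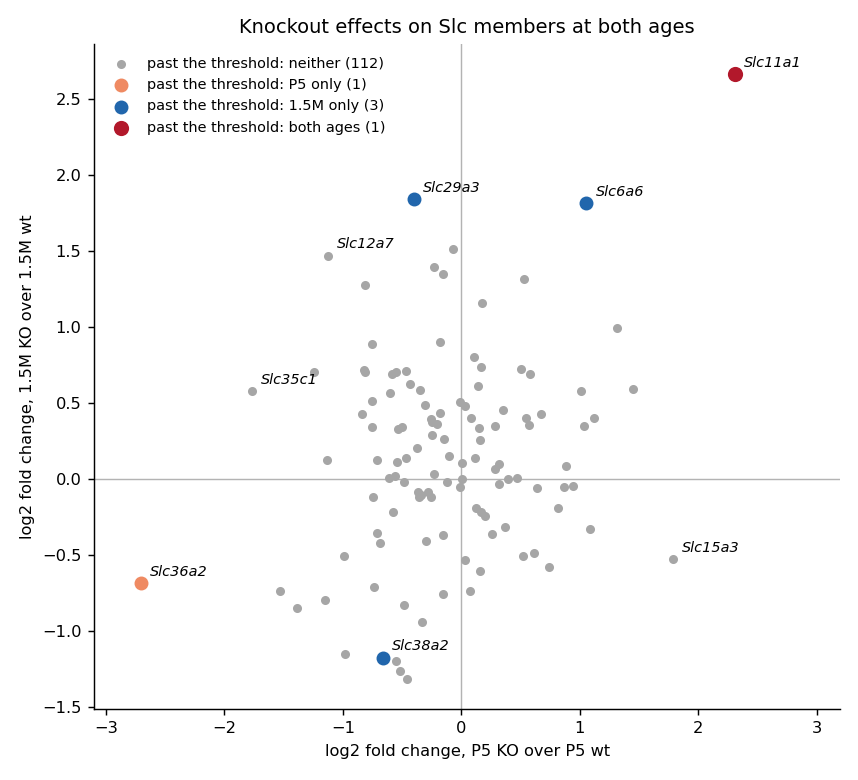
Limma log2 fold change, KO over wt, of the 117 members at 1.5M (y axis) and at P5 (x axis), each point being a gene, coloured by the age at which it was called; members with an adjusted p under 0.1 at either age are named. Slc11a1 lies high at both ages and Slc36a2 lies lowest at P5.

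Mitochondrial carriers, the largest class with 22 members, had no call in any comparison. Slc25a5, which exchanges ADP for ATP across the inner membrane, averaged 25.4 ± 4.86 scaled molecules in 1.5M KO, 32.4 ± 8.90 in 1.5M wt, with 31.7 ± 2.34 in P5 KO and 24.9 ± 6.35 in P5 wt (SD, n = 3 each). Slc25a3, the mitochondrial phosphate carrier, averaged 16.5 ± 5.19 in 1.5M KO, 23.9 ± 5.66 in 1.5M wt, with 17.7 ± 4.52 in P5 KO and 16.9 ± 0.782 in P5 wt. For Slc25a5 the KO and wt libraries overlapped at both ages. For Slc25a3 they overlapped at P5, and at 1.5M every KO library was below every wt library (limma adjusted p = 0.378). The class summed to 57.5 to 83.8 in 1.5M KO, 75.1 to 97.7 in 1.5M wt, with 77.2 to 80.4 in P5 KO and 62.5 to 93.3 in P5 wt.

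The 13 zinc carriers also had no call. Slc39a1, a zinc importer, averaged 6.51 ± 2.97 in 1.5M KO, 5.92 ± 3.35 in 1.5M wt, with 5.33 ± 1.48 in P5 KO and 5.83 ± 1.81 in P5 wt (SD, n = 3 each). Mt1, a zinc-binding metallothionein and no solute carrier, averaged 4.68 ± 0.656 in 1.5M KO and 19.5 ± 6.29 in 1.5M wt, a log2 fold change of -1.82 (limma adjusted p = 0.000538). It was the only call among the 3 metallothionein genes tested, over the 5 comparisons.

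Hexose carriers (8 members) and monocarboxylate carriers (2 members) had no call. Slc2a1, the widely expressed glucose transporter, averaged 0.964 ± 0.825 in 1.5M KO, 3.30 ± 0.463 in 1.5M wt, with 1.01 ± 0.924 in P5 KO and 1.76 ± 0.678 in P5 wt (SD, n = 3 each). Slc16a3, a lactate exporter, averaged 2.76 ± 0.788 in 1.5M KO, 0.546 ± 0.484 in 1.5M wt, with 4.01 ± 1.42 in P5 KO and 2.59 ± 1.41 in P5 wt. At 1.5M the KO and wt groups did not overlap for either gene, Slc2a1 being lower and Slc16a3 higher in KO, with limma adjusted p of 0.215 and 0.126. Of 18 other genes of glucose and lactate metabolism, Eno1, an enzyme of glycolysis, passed at 1.5M (11.3 ± 2.87 in KO and 4.46 ± 0.998 in wt, log2 fold change 1.16, limma adjusted p = 0.0161).

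The 12 exchangers of sodium, protons, bicarbonate and chloride had the highest sums in P5 wt. They summed to 11.9 to 14.4 in 1.5M KO, 12.9 to 15.1 in 1.5M wt, with 9.60 to 17.3 in P5 KO and 20.6 to 28.2 in P5 wt, with no test of the sum since the genes were chosen with results known. Slc4a7, a sodium and bicarbonate cotransporter, averaged 2.09 ± 0.978 in 1.5M KO, 4.27 ± 1.27 in 1.5M wt, with 3.41 ± 1.47 in P5 KO and 8.61 ± 2.18 in P5 wt (SD, n = 3 each). It did not pass a test in any comparison. Slc8a1, the sodium and calcium exchanger, averaged 2.25 ± 0.704, 1.98 ± 0.629, 1.99 ± 1.42 and 3.76 ± 1.59 in the same order.

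**Figure D4:**
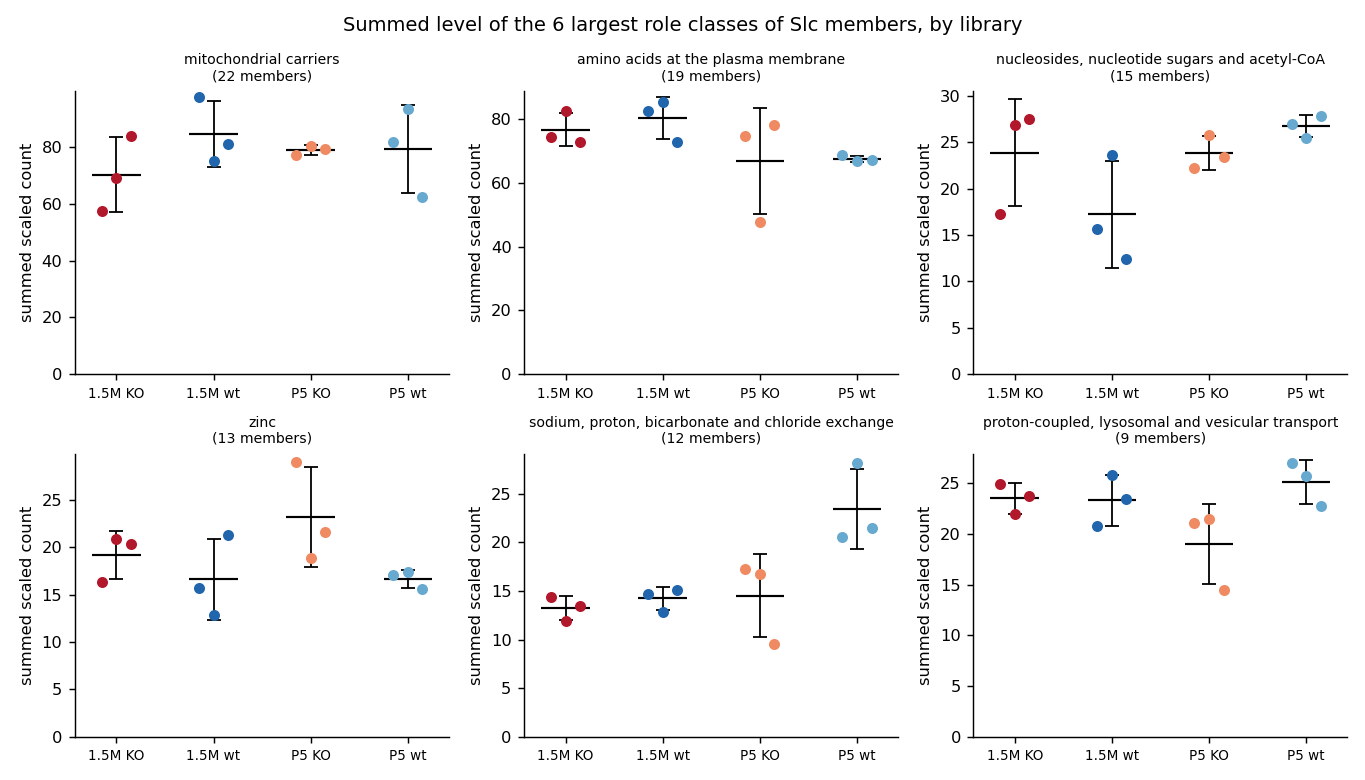
Summed scaled molecules of the members of the 6 largest role classes (y axis) by group (x axis: 1.5M KO, 1.5M wt, P5 KO, P5 wt); points are libraries, wide lines are group means and bars are 1 SD (n = 3). The sodium, proton, bicarbonate and chloride class is highest in P5 wt, at 20.6 to 28.2.

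Slc35c2, related to nucleotide sugar carriers and second to Slc29a3 by mean in its class, had no call and averaged 2.27 ± 0.743 in 1.5M KO, 1.32 ± 0.717 in 1.5M wt, with 1.79 ± 0.817 in P5 KO and 3.61 ± 0.706 in P5 wt (SD, n = 3 each). Slc9a3r1, also without a call and a scaffold that binds a sodium and proton exchanger, averaged 1.46 ± 0.481 in 1.5M KO, 0.842 ± 0.111 in 1.5M wt, with 5.09 ± 1.90 in P5 KO and 3.41 ± 2.04 in P5 wt. Summed keratinocyte markers were 8.62 to 18.7, 8.94 to 35.9, 212 to 650 and 63.5 to 85.2 in the same groups. Of these 10 genes, 4 were called higher in P5 KO than in P5 wt, against 1.15% of all genes tested. The part of these markers in the level of Slc9a3r1 was not tested. Fractional molecules were found in 16 members, and in at least 10 libraries for Slc6a2, Slc7a2, Slc17a8, Slc23a1 and Slc38a6, whose values are uncertain for that reason.

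Other members of highest mean in their class were sparse and had no call. Slc39a11, a zinc transporter, averaged 2.26 ± 0.533 in 1.5M KO, 1.50 ± 1.36 in 1.5M wt, with 1.01 ± 0.924 in P5 KO and 1.97 ± 1.27 in P5 wt (SD, n = 3 each). Slc50a1, a sugar transporter, averaged 0.799 ± 0.732, 1.63 ± 0.656, 1.25 ± 0.546 and 1.2 ± 1.10 in the same order of groups. Slc16a6, of the monocarboxylate transporter family, averaged 1.79 ± 0.605, 3.05 ± 1.31, 0.545 ± 0.481 and 2.05 ± 0.926 in the same order of groups. All of these overlapped between KO and wt at both ages, apart from Slc16a6 at P5, where every KO library was below every wt library (limma adjusted p = 0.38). Slc41a3, a magnesium transporter, averaged 1.45 ± 0.462, 0.535 ± 0.471, 0.303 ± 0.524 and 0.835 ± 0.743 in the same order of groups, and its KO libraries were above its wt libraries at 1.5M (limma adjusted p = 0.585). Slc31a1, the high-affinity copper importer, averaged 1.14 ± 0.771, 0.477 ± 0.826, 1.65 ± 0.849 and 1.69 ± 1.51 in the same order of groups. Slc44a2, a choline transporter, averaged 1.29 ± 0.543, 1.57 ± 1.45, 0.788 ± 0.735 and 1.49 ± 0.438 in the same order of groups. Slc13a3, a sodium-coupled dicarboxylate transporter, was above its 1.5M wt level in every 1.5M KO library and averaged 1.78 ± 0.299, 0.307 ± 0.532, 2.08 ± 2.46 and 1.16 ± 0.232 in the same order of groups (limma adjusted p = 0.336 at 1.5M). Slc20a1, a sodium and phosphate cotransporter, was below every P5 wt library in each P5 KO library and averaged 0.799 ± 1.38, 0.238 ± 0.413, 0.545 ± 0.481 and 1.16 ± 0.232 in the same order of groups (limma adjusted p = 0.717 at P5). Slc10a3, Slc7a6os, Slc17a8 and Slc23a1 had group means between 0.238 and 5.07.

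Genes that work with the carriers were taken as lists chosen with earlier results of these data known. Their calls are therefore a description, set beside the shares over all genes. In 1.5M KO against 1.5M wt, 3.24% of all genes tested were called higher and 2.04% lower. The shares were 2.36% and 2.84% in 1.5M wt against P5 wt, and 1.15% and 0.649% in P5 KO against P5 wt. They were 1.32% and 0.678% for the difference of the knockout effects. Of 14 glutathione and Nrf2 genes tested, 3 were higher in 1.5M KO than in 1.5M wt and none lower, against 3.24% of all genes tested called higher there. Gpx1, a glutathione peroxidase, had 51.9 ± 12.2 in 1.5M KO and 8.51 ± 6.63 in 1.5M wt, a log2 fold change of 2.77 (limma adjusted p = 3.99e-05). Nfe2l2, which encodes Nrf2, and Prdx1, a peroxiredoxin, had log2 fold changes of 1.88 and 1.37 in the same comparison. In 1.5M wt against P5 wt, which uses the same 1.5M wt libraries, 2 of the glutathione and Nrf2 genes were called higher and 2 lower. Of the 3 with the largest change, which alone are named, Gpx1 was lower (-2.28). Txnrd1, a thioredoxin reductase, and Srxn1, a sulfiredoxin, were higher (1.70 and 1.68). Of 12 iron handling genes tested, Ftl1, the ferritin light chain, was higher in 1.5M KO (162 ± 12.4) than in 1.5M wt (74.2 ± 0.476), with a log2 fold change of 1.11 (limma adjusted p = 4.72e-06), and Pcbp2, an iron chaperone, was lower at -0.91. In 1.5M wt against P5 wt Ftl1 was lower (-0.92), and the knockout effects at 1.5M and P5 differed for Ftl1 (0.86) and Gpx1 (3.00). Of 14 amino acid starvation genes tested, Eif4ebp1, a repressor of translation, was higher in 1.5M KO than in 1.5M wt (2.27). In 1.5M wt against P5 wt it was lower (-2.27), and Atf4, the transcription factor of that response, was higher (1.41). Sesn1, a leucine sensor family gene, was lower in that comparison (-1.90), as were the glycolysis genes Eno1 (-1.48) and Gapdh (-0.95), and none of the 17 tested genes of mTORC1 nutrient sensing was called for KO against wt at either age. None of the 10 tested arginine and polyamine genes was called for KO against wt, while Sat1 and Oaz2, which act in polyamine turnover, were lower in 1.5M wt than in P5 wt (log2 fold changes -1.75 and -1.82). None of the genes of these lists was called in P5 KO against P5 wt. Among 12 carriers with other symbols tested, Mfsd10 was lower in P5 KO than in P5 wt (log2 fold change -1.71, limma adjusted p = 0.0376) and Mfsd1 was higher in 1.5M KO than in 1.5M wt (1.43, adjusted p = 0.0379). In 1.5M wt against P5 wt, Ank, a pyrophosphate and citrate exporter, was higher (1.80) and Mfsd10 was lower (-1.57).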

How the data were processed

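RNA was measured with molecular barcodes and oligo-dT priming in 12 libraries of 100 sorted cells, per the labels' protocols. The aligner was TopHat2 and the build mm10, per the submitters' processing notes. How genes were counted, with which annotation, strand setting and scaling, is not given in the sources used here. In the authors' table, the deposited signal per gene and library has the same total in every library, and 92.6% to 94.9% of values above 0 were whole multiples, within 0.01, of a single step, taken as the worth of 1 molecule. This gave depths and floors, and no negative binomial test was run because part of the values are fractions, while voom on these molecule numbers was an alternative.

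Genes above 0 in at least 3 libraries were fitted together with limma 3.58.1 in R 4.3.3 on log2(signal + 1), with a mean for each of the 4 groups and a trended prior, and p-values were adjusted by Benjamini-Hochberg over all 10023 genes in each of the comparisons. The steps were tested on simulated data. Members and lists were chosen with earlier results of these data known. The text names every called member and the 2 members of highest mean in each role class. Of the called genes of each context list, it names at most 3 per comparison, those with the largest change. Coordinates are of GRCm38 (RefSeq), and promoter sequences are from RefSeq GRCm38.p6. Alternatives covered the pseudocount, the filter, scaling, voom on molecule numbers, thinning, the replicate block, the libraries of a comparison alone and each library left out.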

Additional observations from a re-analysis of the deposited data

Results flagged for a closer look

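Slc12a7 was picked out because the effect of the knockout differed between the ages by a test of the difference itself. The knockout effect at 1.5M minus that at P5 was 2.597 on the log2 scale (SE 0.68, limma adjusted p = 0.0499), from 11 molecules in 1.5M KO and 0 in 1.5M wt, with 2 at P5 in KO and 7 at P5 in wt. The call ended in 17 of 21 alternatives.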

How the results depend on the processing

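No result changed direction under any alternative. Of the named members, Slc6a6 and Slc11a1 in 1.5M KO against 1.5M wt passed in all 22 alternatives. Slc11a1 and Slc36a2 in P5 KO against P5 wt were lost with the libraries of the comparison alone (adjusted p 0.205 for each), as were Slc29a3 in 1.5M KO against 1.5M wt (0.122) and Slc15a3, Slc29a3 and Slc31a2 in 1.5M wt against P5 wt (0.159, 0.138 and 0.0812). That setting fits fewer samples. The share over all genes under each alternative is not given here. The counts below therefore do not show whether the members moved apart from other genes. For P5 KO against P5 wt the count of 2 called members was 5 with genes above 0 in at least 6 libraries, 4 with voom and 0 with the libraries of the comparison alone. For 1.5M KO against 1.5M wt the count of 4 was 11 with voom and 8 with the libraries of the comparison alone. For 1.5M wt against P5 wt the count of 4 was 8 with the stricter filter, 8 with voom and 1 with the libraries of the comparison alone. For 1.5M KO against P5 KO the count of 0 was 1 with a pseudocount of 0.1 and 6 with voom. For the difference of the knockout effects the count of 1 was 0 with no filter, with median-of-ratios scaling, with quantile normalization and after thinning, and 4 with the stricter filter and with voom. Leaving out each library gave 2 to 3, 2 to 4, 2 to 6, 0 to 1 and 0 to 2 called members in the same order of comparisons. The count for 1.5M KO against 1.5M wt was 2 without the second 1.5M KO or the first 1.5M wt library. Median-of-ratios scaling moved the median of all genes in 1.5M wt against P5 wt to -0.11, against -0.22 as deposited.

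Libraries of the same number did not deviate together (correlations -0.0278 to 0.0634 over 2413 genes in 18 pairs), and the main fit does not pair them. With 3 libraries per group, low correlations cannot exclude that libraries of the same number were prepared together. With the replicate block the counts were 3, 4, 4, 0 and 1, the last being Slc29a3 in place of Slc12a7. Depth limits members with few molecules: 62 had under 20.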
